A study of Rattus norvegicus with 8 samples.

Results

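Rats on a cocoa diet (C10) were compared with rats on a diet with cocoa fiber (CF), which asks how colonic gene expression under cocoa differs from that under its fiber. The labels of each array name the diet behind each dye, and every dye labelled cocoa diet or cocoa fiber diet was taken. This gave 4 C10 and 4 CF rats of the 16 rats of the series, on 6 of its 8 arrays. The labels give each rat 1 array and 1 dye whereas the methods speak of swapping the dyes of every RNA, so that counting each dye as 1 rat rests on the labels alone. All rats were female Wistar rats, 6 weeks old by the labels, and had received their diet for 3 weeks. The C10 diet contained cocoa powder, with its polyphenols and its fiber, and the CF diet contained cocoa fiber in place of cocoa. The reference (REF) rats ate a standard diet without cocoa, and the inulin (I) rats a diet in which inulin was the added fiber. Total RNA came from a 5 mm piece of the mid-colon, so that mucosa, muscle and lymphoid tissue were measured together, and from 4 of the rats that received each diet. Rats carry numbers here only as names, in the order of the arrays.

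Each array took 2 rats, 1 in the dye Cy5 and 1 in Cy3. C10 rats 1 and 2 shared arrays 1 and 2 with REF rats, C10 rats 3 and 4 shared arrays 3 and 4 with CF rats 1 and 2, and CF rats 3 and 4 shared arrays 5 and 6 with I rats. The 8 arrays lay on 1 slide and were scanned at 1 time. Between 71.7 and 76.7 % of spots were well above background in the C10 rats and between 72.0 and 77.66 % in the CF rats. Values are normalized log2 signals, and the lowest signal that stood well above background was 5.82 to 6.19 in C10 rats and 5.97 to 6.22 in CF rats. Near that floor a fall can only be underestimated. A log2 change is C10 minus CF in a limma model with diet, dye and array, fitted to all 16 rats. The REF and I rats helped to estimate the spread and, through the dye and the shared arrays, the change itself. The change can therefore differ from the plain difference of the means. A gene passed when its p adjusted over the 19901 genes tested was below 0.05, and was called when its change was also at least 2-fold. For single genes the 4 C10 rats were also set against the 4 CF rats in a two-sided exact permutation test, whose lowest possible p of 0.0286 was given by every gene without overlap between these rats.

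Mast cells, whose proteases formed the gene list with the median furthest from 0, sit in the mucosa and the deeper layers of the gut wall. They carry IgE on a receptor of several chains and store histamine, proteoglycan and large amounts of serine proteases and a carboxypeptidase in granules. The rat genome holds many closely related protease genes of this kind side by side, and mucosal mast cells use a different set of them than the mast cells of connective tissue. Macrophages, the other cells met often in what follows, line the lamina propria and clear particles and dying cells.

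The label colon fitted the markers. The 10 colon epithelium genes tested had a median log2 change of -0.02, and 0 of them passed. That median was 0.18 without C10 rat 4, 0.16 without CF rat 2 and -0.13 without CF rat 3. It changed sign in 11 of 25 alternatives. Cdh17, a cadherin of intestinal epithelium, was at 14.44 ± 0.20 in C10 and 14.29 ± 0.31 in CF rats (SD, n = 4 each), and Cdx2, an intestinal transcription factor, at 13.43 ± 0.97 and 13.50 ± 0.45. Muc2 and Cdx1 were not tested. The mean of the 10 genes was 13.38, 13.76, 13.47 and 12.74 in C10 rats 1 to 4 and 13.26, 13.65, 12.78 and 13.14 in CF rats 1 to 4, which overlap throughout.

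The pieces were not alike, and C10 rat 1 stood apart. The mean signal of 12 smooth muscle genes was 11.83, 14.15, 14.02 and 13.99 in C10 rats 1 to 4 and 14.06, 14.21, 14.02 and 13.95 in CF rats 1 to 4. C10 rat 1 alone was low, and the 13 gut neuropeptide genes had their lowest mean in it as well, 7.82 against 8.80 to 9.32 in CF rats. All 12 smooth muscle genes were lower in C10, with a median of -0.49, of which -0.07 remained without C10 rat 1 and which was -0.90 without C10 rat 4, and 0 passed. The 13 B cell genes, which mark lymphoid follicles, had means of 9.17, 6.86, 8.18 and 6.98 in C10 and 8.09, 6.97, 9.45 and 7.01 in CF rats. They were high in 2 rats of each of these diets. They also ranged from 6.93 to 8.998 in REF and from 6.88 to 9.32 in I rats. The split followed the shared array. Both rats of every odd-numbered array read 7.55 to 9.45, and both rats of every even-numbered array 6.86 to 7.06. The T cell list split in the same way, at 7.39 to 8.57 and 6.90 to 7.19. Why these signals followed the array was not tested. The median change of the B cell genes was 0.05. This median hung on single rats, with -0.29 without C10 rat 1, -0.11 without C10 rat 3, 0.34 without C10 rat 4, -0.15, 0.29 and -0.14 without CF rat 2, 3 or 4, and -0.46 with the smooth muscle list signal as a covariate. The 7 posterior Hox genes, which rise along the colon, had means of 8.58, 8.95, 8.89 and 9.71 in C10 and 8.98, 8.22, 8.76 and 9.12 in CF rats, with the highest value in C10 rat 4.

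Most of what passed was lower under cocoa. Of the 85 genes past the adjusted threshold (0.427 % of those tested), 69 were lower in C10 (0.347 %) and 16 higher (0.0804 %), whereas 9815 of all genes tested (49.3 %) were lower. The 20 called genes (0.100 %) were all lower. Called rises appeared in some alternatives, 6 of 66 calls with rank product, 3 of 44 with the smooth muscle list signal as a covariate, 2 of 39 without C10 rat 1 and 2 of 12 without C10 rats 1 and 4. All 4 C10 rats lay below all 4 CF rats for 387 genes (1.94 %) and above them for 316 (1.59 %), together 703 (3.53 %), and 60 of the 69 genes and 14 of the 16 were among these. The 69 genes had a median change of -0.76 and the 16 a median of 0.42, beside 0.002 over all genes tested. Log-ratios in opposite dyes on the 2 arrays that paired the diets directly had the sign of the model in 68 of the 69 genes and in all 16, with medians of -0.82 and -0.95 for the falls and 0.44 and 0.29 for the rises. These arrays were among those to which the model was fitted, so part of the agreement is built in. Of all genes tested, 4441 were lower and 4457 higher in C10 on both arrays.

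In the 20 called genes C10 lay further from REF than CF did, and in all 69 lower genes less clearly so. The medians of the 20 were -1.52 for C10 minus REF and 0.05 for CF minus REF, and those of the 69 were -0.58 and 0.12. Against REF in C10, 18 of the 20 and 39 of the 69 also passed, beside 187 of all genes tested. The called gene Igfbp3 did not (-0.73, adjusted p 0.122) and had a CF minus REF of 0.52, and in some of the 69, such as Igf1 (-0.39 and 0.47) and Cpz (-0.42 and 0.54), CF lay further from REF than C10. These differences share the C10 or the CF rats with the comparison and are given only side by side with it. For 15 of the 20 called genes and 45 of the 69, the 4 C10 rats were the lowest of all 16 rats, which held for 0.538 % of all genes tested. For the 16 higher genes the medians were 0.29 for C10 minus REF and -0.11 for CF minus REF, and in 9 of them the 4 C10 rats were the highest of the 16, as in 62 of all genes tested (0.312 %).

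The counts hung on single rats and on the way the arrays entered the model. Leaving out CF rat 1 or CF rat 2 ended every call and left 3 genes past the threshold, Hdc, Siglec1 and Efemp2. Leaving out C10 rat 3 left 1 called gene and CF rat 3 left 3, whereas 39 were called when C10 rat 1 was dropped, and 225 genes passed when C10 rat 2 was. No gene passed with the array as a fixed term, in the 8 dyes of C10 and CF alone or on arrays 1 to 4 alone, the last chosen after seeing the data, and the smallest adjusted p was then 0.0833, 0.0599 and 0.0551. Of the 85 genes, only these 3 passed with any 1 rat left out.

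**Figure D1:**
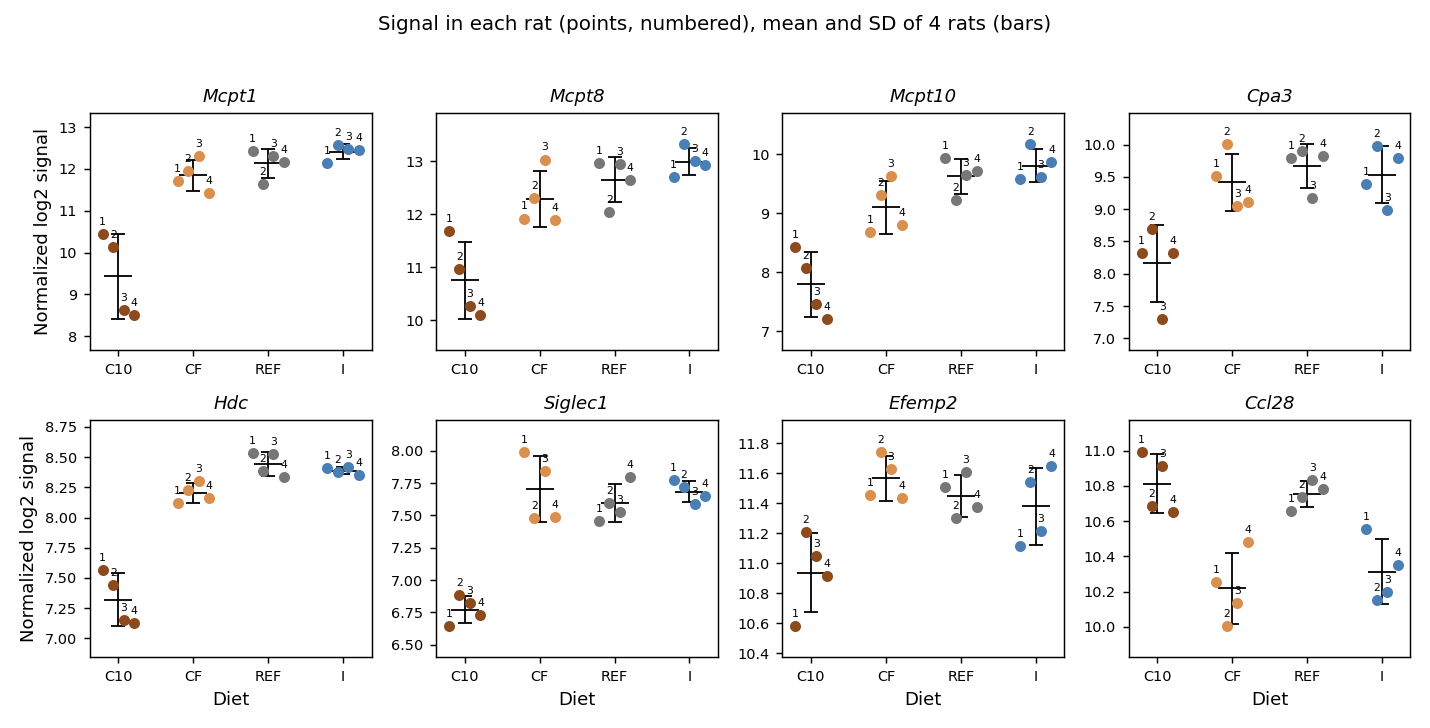
Normalized log2 signal of named genes in each rat, by diet (C10, CF, REF and I), with 1 numbered point per rat and bars for the mean and SD of 4 rats. The C10 rats lie lowest for Mcpt1 (8.50 to 10.45, against 11.43 to 12.30 in CF), with C10 rats 3 and 4 below C10 rats 1 and 2.

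The proteases of mast cell granules fell furthest. Of 19 listed genes, 15 were matched to a probe by symbol and 12 tested. Of these 12, 8 passed, all lower in C10, and 7 were called. The median of the 12 was -1.22, and it stayed between -1.69 and -0.998 in the 25 alternatives in which list medians were taken. Their mean signal was 8.38, 8.31, 7.78 and 7.75 in C10 rats 1 to 4, 8.90, 9.20, 9.28 and 8.75 in CF rats 1 to 4, 8.998 to 9.41 in REF rats and 9.23 to 9.55 in I rats. Every C10 rat was below every other rat, and C10 rats 3 and 4 were the lowest. In this whole tissue, fewer mast cells and less RNA per mast cell cannot be told apart.

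Mcpt1, a chymotrypsin-like granule protease, showed the largest fall of all genes tested in the model as reported. Its signal was 10.45, 10.13, 8.63 and 8.50 in C10 rats 1 to 4 and 11.72, 11.94, 12.30 and 11.43 in CF rats 1 to 4. All C10 rats lay well below all CF rats, and the REF rats (11.64 to 12.42) and I rats (12.15 to 12.57) lay where the CF rats did. The fall was 6.0-fold, a log2 change of -2.59 (SE 0.32, adjusted p 0.00743). The adjusted p was 0.0865 without CF rat 1 and 0.0587 without CF rat 2, and the change stayed between -2.90 and -2.17 with any 1 rat left out. In some alternatives another gene fell further. With Hoxb13 and B cell list signals as covariates, Retnlb changed by -3.13 and Mcpt1 by -2.47.

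Relatives of another branch of the family followed. Mcpt8 read 11.68, 10.97, 10.27 and 10.10 in the C10 rats and 11.92, 12.31, 13.04 and 11.89 in the CF rats, and changed by -1.58 (SE 0.27, adjusted p 0.0272). Mcpt9 read 11.004, 10.26, 9.37 and 9.72 and 11.13, 11.66, 12.27 and 11.20, and changed by -1.54 (SE 0.27, adjusted p 0.029). Mcpt10 read 8.42, 8.08, 7.46 and 7.22 and 8.67, 9.31, 9.63 and 8.80, and changed by -1.35 (SE 0.21, adjusted p 0.0171). In each of these genes C10 rat 1 was close under the lowest CF rat, C10 rats 3 and 4 were far below, and CF rat 3 was the highest. Mcpt8l2, a neighbour of Mcpt8 in the genome, had signals of 7.23, 7.15, 6.60 and 6.50 in C10 and 7.47, 8.03, 8.43 and 7.85 in CF, a change of -1.09 (SE 0.15, adjusted p 0.0131). Without C10 rat 3 none of these 4 passed, with an adjusted p of 0.11 for Mcpt8, 0.11 for Mcpt9, 0.11 for Mcpt10 and 0.107 for Mcpt8l2, nor did they without CF rat 1, 2 or 3. Mcpt8 (0.071) and Mcpt9 (0.0734) did not pass without C10 rat 4 either, and Mcpt8l2 passed there without being called (-0.95). Its change was -1.67 and -1.98 without an offset and with the processed signals. Mcpt8 and Mcpt9 did not pass with a term for arrays 1 to 4 against 5 to 8.

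Mcpt4, a chymase of mucosal mast cells, was called although the diets overlapped. It read 6.60, 7.24, 6.81 and 5.96 in C10 rats 1 to 4 and 8.53, 9.0, 8.29 and 6.93 in CF rats 1 to 4, where CF rat 4 fell below C10 rat 2. Its change was -1.80 (SE 0.31, adjusted p 0.0269), with an exact permutation p of 0.0571. Vch, the vascular chymase, a close relative that was not on the mast cell list, overlapped in the same rats, with 7.44, 7.63, 6.85 and 6.04 in C10 and 8.55, 8.87, 9.27 and 7.47 in CF, and changed by -1.72 (SE 0.30, adjusted p 0.0272). Both calls ended without C10 rat 3 or 4 or without CF rat 1, 2 or 3, most clearly without C10 rat 3 (adjusted p 0.11 and 0.116) or CF rat 1 (0.156 and 0.156). Without an offset and with the processed signals the changes were -2.57 and -3.06 for Mcpt4 and -2.38 and -2.68 for Vch. Vch did not pass with a term for arrays 1 to 4 against 5 to 8.

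Cpa3, the carboxypeptidase stored with these proteases, read 8.32, 8.69, 7.31 and 8.33 in C10 rats and 9.51, 10.003, 9.06 and 9.11 in CF rats. Here C10 rat 3 was lowest and the other 3 C10 rats were close together. It changed by -1.41 (SE 0.26, adjusted p 0.0319). Cma1, the chymase of connective tissue mast cells, passed with less than a 2-fold change, with 7.07, 6.996, 6.73 and 6.73 in C10, 7.60, 7.93, 8.14 and 7.64 in CF and a change of -0.87 (SE 0.17, adjusted p 0.0426). Without CF rat 1 the adjusted p was 0.184 for Cpa3 and 0.164 for Cma1. Neither passed without C10 rat 3 or 4 or CF rat 2 or 3, nor Cma1 without CF rat 4. Cma1 was called without an offset (-1.36), with the processed signals (-1.67) and with the smooth muscle list signal as a covariate (-1.004). Cpa3, in contrast, did not pass without an offset or with the processed signals. Nor did Cma1 pass with quantile normalization of all dyes or without the filter on dim probes.

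The tryptases showed no fall, but Tpsb2 and Tpsab1 lay near the background floor, where a fall can only be underestimated. Tpsb2, a tryptase of connective tissue mast cells, was at 6.76 ± 0.07 in C10 and 6.73 ± 0.24 in CF rats, a change of 0.05 (SE 0.10, adjusted p 0.872). Tpsab1, its neighbour, changed by 0.06 (SE 0.06, adjusted p 0.712) and was well above background in 2 of 4 rats of either diet. Tpsg1, a tryptase anchored in the membrane, changed by 0.07 (SE 0.16, adjusted p 0.892). Mcpt3 was well above background in 0 of 4 C10 rats and in 4 of 4 CF rats, with signals of 6.29 to 7.07 in the latter, and did not pass (adjusted p 0.265). Mcpt2, Ctsg and 5 paralogs on the list were not tested, because no probe was matched to the symbol or none passed the filter. The paper reports Mcpt2 as lower in C10 than in REF, on this array and by PCR. Its absence here therefore says nothing about its change.

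Only 13 of the 20 called genes had a symbol. Among the called transcripts without one, the 2 with the largest falls moved as the proteases did, and the others are not described. ENSRNOT00000038253 read 10.22, 9.998, 8.64 and 8.41 in C10 rats and 11.26, 11.38, 12.15 and 11.10 in CF rats, a change of -2.27 (SE 0.31, adjusted p 0.0131) beside a difference of -2.175 between the group means in its other probe. ENSRNOT00000043182 read 8.52, 8.34, 7.49 and 7.08 and 9.63, 10.30, 10.18 and 8.74, a change of -2.07 (SE 0.29, adjusted p 0.0131), while its dimmer probe differed by -0.83 between the means and its brighter probe by -1.85. C10 rats 3 and 4 were lowest in both, and neither passed without C10 rat 3 or CF rat 1, 2 or 3. Of the 20 called genes, 14 had C10 rats 3 and 4 both below C10 rats 1 and 2, as had 2613 of all genes tested, and these 2 rats were the ones that shared their arrays with CF rats. Differences between arrays and between rats cannot be told apart here.

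The other genes of mast cells fell less, and fewer of them passed. Of 17 tested genes of mast cell identity and the IgE receptor, 4 passed, all lower in C10, 16 were lower at any p, and the median was -0.26. Their mean was 8.59, 8.56, 8.40 and 8.35 in C10 rats 1 to 4 and 8.84, 8.88, 8.89 and 8.71 in CF rats 1 to 4, with all C10 rats below all CF rats. Hdc, the enzyme that makes histamine, had the smallest adjusted p of all genes. It read 7.57, 7.44, 7.15 and 7.12 in C10 rats and 8.12, 8.23, 8.30 and 8.16 in CF rats, and 8.34 to 8.54 in REF and 8.35 to 8.42 in I rats. The C10 rats were clearly below the rest, and the CF rats were close to each other and slightly below REF and I. Hdc changed by -0.92 (SE 0.08, adjusted p 0.000221), and its adjusted p was at most 0.00391 without CF rat 1 among the fits with 1 rat left out. Without an offset and with the processed signals Hdc changed by -1.23 and -1.33 and was called, as it was with the smooth muscle list signal as a covariate (-1.002).

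All 3 chains of the IgE receptor fell. Fcer1g, the gamma chain, which macrophages and other cells with Fc receptors also use, read 10.29, 10.74, 10.22 and 10.66 in C10 and 11.30, 11.47, 11.30 and 11.13 in CF rats and changed by -0.81 (SE 0.14, adjusted p 0.0269). Fcer1a, the alpha chain that binds IgE, read 6.29, 6.48, 6.21 and 6.17 and 6.86, 7.11, 7.20 and 6.71, a change of -0.68 (SE 0.11, adjusted p 0.024). Ms4a2, the beta chain, read 6.50, 6.66, 6.49 and 6.44 and 7.18, 7.46, 7.05 and 6.81, a change of -0.67 (SE 0.12, adjusted p 0.0299). None of the 3 genes overlapped between the diets, but Fcer1a was well above background in only 2 of 4 C10 rats and Ms4a2 in 3, and the size of their falls depended on the treatment of background, with -1.53 and -2.33 for Fcer1a and -1.29 and -1.73 for Ms4a2 without an offset and with the processed signals, where both were called. Without CF rat 1 the adjusted p was 0.156 for Fcer1g, 0.133 for Fcer1a and 0.158 for Ms4a2. None of the 3 passed without C10 rat 3 or CF rat 2 or 3, nor Fcer1a and Ms4a2 without C10 rat 4.

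Kit, Cd63, Srgn and Hpgds did not pass with all rats in the model. Kit, the receptor for stem cell factor, which pacemaker cells of the gut muscle carry too, was at 8.17 ± 0.38 in C10 and 8.29 ± 0.26 in CF rats, a change of -0.19 (SE 0.16, adjusted p 0.651). Cd63, a granule membrane protein of many cells, changed by 0.06 (SE 0.09, adjusted p 0.82). Srgn, the core protein of granule proteoglycan in blood cells of several kinds, changed by -0.74 (SE 0.28, adjusted p 0.275), and Hpgds, the synthase of prostaglandin D, by -0.56 (SE 0.12, adjusted p 0.0541) with all C10 rats below all CF rats. Without C10 rat 1 both Srgn (-1.05, adjusted p 0.023) and Hpgds (-0.59, adjusted p 0.0413) passed, as they did with the smooth muscle list signal as a covariate (-1.16, adjusted p 0.00218, and -0.61, adjusted p 0.0347), an alternative chosen after seeing the data.

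Signals that feed or attract mast cells showed no change that passed. Of 13 tested genes, 6 were higher and 7 lower in C10, with a median of -0.03. This median was -0.13 without C10 rat 1, -0.11 without CF rat 2 or 4 and -0.01 without C10 rat 4. With the smooth muscle list signal as a covariate it was -0.16. Kitlg, stem cell factor itself, was at 12.38 ± 0.17 in C10 and 12.33 ± 0.29 in CF rats. Il33, an alarm cytokine that mast cells answer to, changed by -0.29 (SE 0.18, adjusted p 0.514). Il18, a cytokine of the epithelium, was 11.62, 11.86, 11.83 and 12.21 in C10 rats and 11.10, 11.09, 11.62 and 11.62 in CF rats, and its change of 0.54 did not pass (adjusted p 0.342) although the rats did not overlap. Il3, Il4, Il9, Tslp, Csf2 and Cxcr2 were not tested, and Il9r and Il10 were well above background in 0 of 4 C10 rats.

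**Figure D2:**
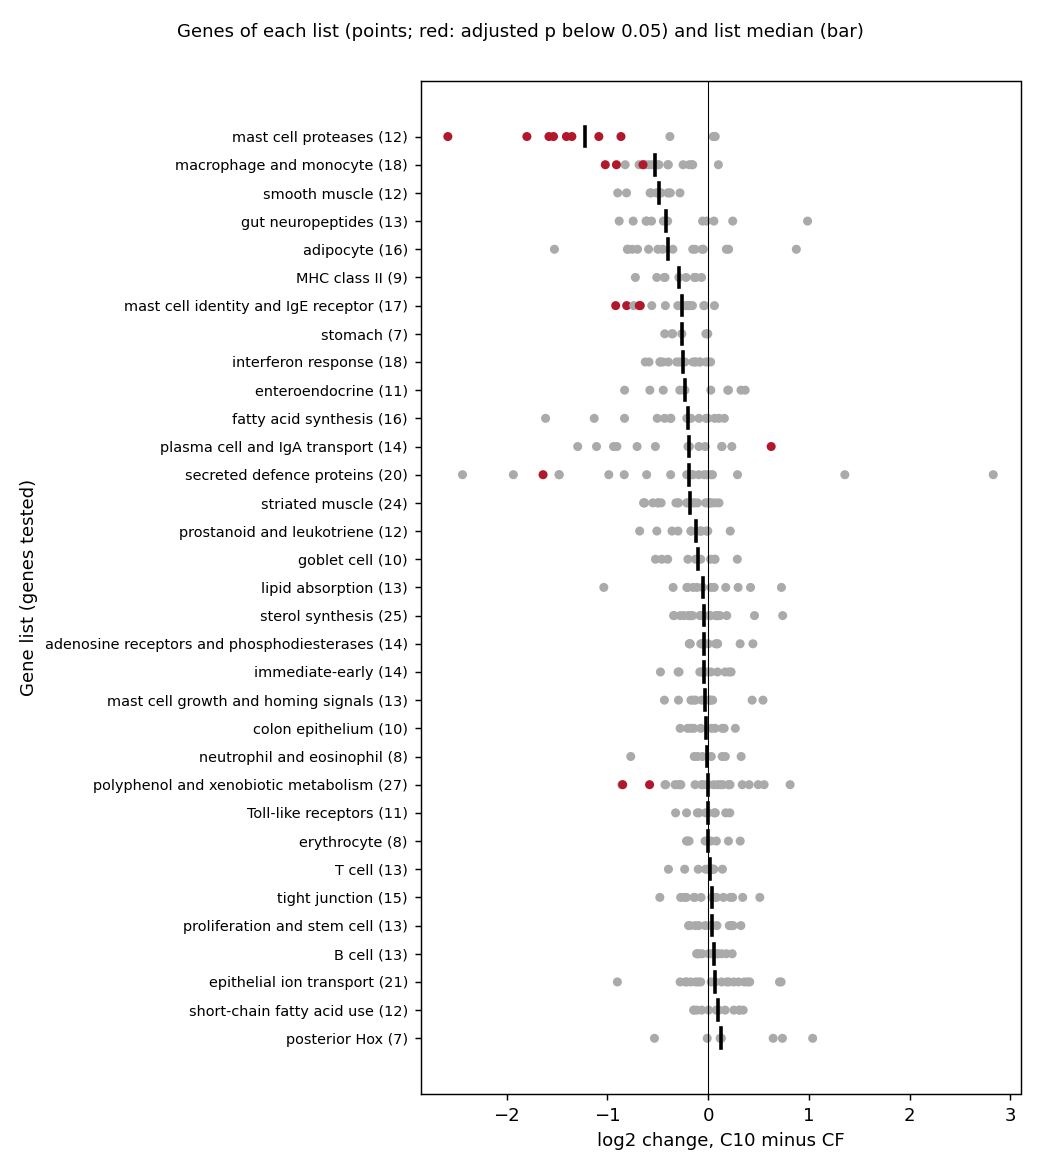
Log2 change of C10 against CF for each tested gene of the gene lists, with 1 point per gene, in red where the adjusted p is below 0.05, and a bar at the list's median. The mast cell proteases (median -1.22) lie furthest from 0, and the macrophage list (median -0.53) follows.

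Several of the protease genes lie together, and their promoters show the kinship within the family. Of the genes named here or tested from the protease list, 8 lie within 452 kb of chromosome 15 of the rat genome (build GRCr8). Cpa3 lies on chromosome 2, and Tpsab1, Tpsb2 and Tpsg1 lie on chromosome 10. Promoters were taken from RefSeq as 250 bases before to 50 bases after the start of each gene, and 26 of 32 named genes with a symbol and 11 of 12 tested proteases were matched. Their longest identical runs were 68 bases between Mcpt1 and Vch, 49 between Mcpt4 and Vch and 81 between Mcpt8 and Mcpt9, but only 9 between Mcpt1 and Mcpt8 and 9 between Mcpt1 and Cpa3. Genes so alike may share signal on an array, which was not tested.

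The promoters of 6 genes that fell are shown because they moved together and fall into these groups. They were searched for GATAA on both strands, the core of the sites of GATA factors, among them Gata2 of mast cells, and capitals mark each match (TTATC on the printed strand where it lies on the other). GATAA occurred in 6 of the 11 matched proteases (54.5 %), in 8 of the 26 named genes (30.8 %) and in 8881 of all 33469 promoters (26.5 %). The windows are chr15:33841356-33841655 (plus strand) for Mcpt1, chr15:33471241-33471540 (plus strand) for Mcpt4, chr15:33569491-33569790 (plus strand) for Vch, chr15:33769399-33769698 (plus strand) for Mcpt8, chr15:33827180-33827479 (plus strand) for Mcpt9 and chr2:104673188-104673487 (minus strand) for Cpa3. Mcpt4 and Vch held 3 matches each, Mcpt1 and Cpa3 held 1, and Mcpt8 and Mcpt9 held 0, so the genes that fell included promoters with and without these letters. A match describes the letters and not a bound factor.
Mcpt1: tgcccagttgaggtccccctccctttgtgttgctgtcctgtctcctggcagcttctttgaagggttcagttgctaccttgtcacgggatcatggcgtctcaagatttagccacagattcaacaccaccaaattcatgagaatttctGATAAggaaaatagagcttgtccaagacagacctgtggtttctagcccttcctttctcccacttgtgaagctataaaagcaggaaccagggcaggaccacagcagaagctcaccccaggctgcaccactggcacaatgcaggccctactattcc
Mcpt4: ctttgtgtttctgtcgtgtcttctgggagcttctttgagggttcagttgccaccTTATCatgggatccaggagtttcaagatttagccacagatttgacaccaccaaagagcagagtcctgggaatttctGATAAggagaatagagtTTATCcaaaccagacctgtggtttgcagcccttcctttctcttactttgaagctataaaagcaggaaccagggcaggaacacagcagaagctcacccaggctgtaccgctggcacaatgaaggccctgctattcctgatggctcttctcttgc
Vch: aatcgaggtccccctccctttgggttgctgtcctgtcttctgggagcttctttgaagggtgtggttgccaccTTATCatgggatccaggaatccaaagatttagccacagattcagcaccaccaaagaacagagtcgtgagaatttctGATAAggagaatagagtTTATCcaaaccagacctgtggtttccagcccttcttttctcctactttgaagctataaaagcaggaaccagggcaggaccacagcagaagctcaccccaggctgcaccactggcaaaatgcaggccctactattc
Mcpt8: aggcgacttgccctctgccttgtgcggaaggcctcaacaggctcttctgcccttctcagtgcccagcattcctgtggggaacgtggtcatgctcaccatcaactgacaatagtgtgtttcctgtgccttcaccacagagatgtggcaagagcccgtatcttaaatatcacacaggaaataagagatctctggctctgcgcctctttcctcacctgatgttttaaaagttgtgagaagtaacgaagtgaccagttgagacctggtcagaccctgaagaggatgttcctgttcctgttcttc
Mcpt9: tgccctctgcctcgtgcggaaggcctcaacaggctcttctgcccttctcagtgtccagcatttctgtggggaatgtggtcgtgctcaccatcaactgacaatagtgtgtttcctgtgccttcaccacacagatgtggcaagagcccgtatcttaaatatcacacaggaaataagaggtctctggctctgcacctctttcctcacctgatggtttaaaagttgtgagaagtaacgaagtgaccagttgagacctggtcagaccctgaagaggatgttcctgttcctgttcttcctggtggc
Cpa3: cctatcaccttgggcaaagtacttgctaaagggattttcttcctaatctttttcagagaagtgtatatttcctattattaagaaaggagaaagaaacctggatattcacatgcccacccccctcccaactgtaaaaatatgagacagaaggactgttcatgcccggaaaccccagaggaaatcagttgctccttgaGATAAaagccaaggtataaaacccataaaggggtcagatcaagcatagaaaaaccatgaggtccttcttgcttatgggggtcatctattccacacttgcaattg

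Macrophage genes were lower in C10 as well. Of 18 tested, 3 passed, all lower in C10, 17 were lower at any p, and the median was -0.53, which was -0.34 without C10 rat 3 and -0.33 without CF rat 1. The mean of the list was 8.90, 9.20, 8.93 and 9.01 in C10 rats 1 to 4 and 9.67, 9.49, 9.67 and 9.27 in CF rats 1 to 4, so that each C10 rat was below each CF rat. Siglec1, the adhesion receptor sialoadhesin of tissue macrophages, read 6.64, 6.89, 6.82 and 6.73 in C10 and 7.99, 7.48, 7.85 and 7.49 in CF rats. The C10 rats formed a tight group under all CF rats, and the change was -0.91 (SE 0.10, adjusted p 0.00191), with an adjusted p of at most 0.0333 without C10 rat 3 among the fits with 1 rat left out. Without an offset and with the processed signals Siglec1 changed by -1.48 and -1.73 and was called. Fewer macrophages and less RNA per macrophage cannot be told apart either.

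The other macrophage genes that passed were dimmer or more variable. Fcgr3a, a low-affinity receptor for IgG, read 6.46, 6.92, 6.64 and 6.44 in C10 and 7.08, 7.43, 7.22 and 7.41 in CF rats, a change of -0.65 (SE 0.12, adjusted p 0.0358). Ccl12, a chemokine for monocytes, read 6.53, 6.45, 6.78 and 6.27 and 7.68, 7.63, 7.53 and 6.72, and was called at -1.02 (SE 0.18, adjusted p 0.029). CF rat 4 was within the C10 range, so Ccl12 overlapped between the diets. Without CF rat 1 the adjusted p was 0.124 for Fcgr3a and 0.158 for Ccl12. Neither passed without C10 rat 3 or 4 or CF rat 2 or 3, nor Fcgr3a without CF rat 4, and Ccl12 passed without being called when C10 rat 2 was dropped (-0.98). Without an offset and with the processed signals, Fcgr3a changed by -1.15 and -1.44 and Ccl12 by -1.76 and -2.22, and both were called. Fcgr3a did not pass with the smooth muscle list signal as a covariate. The complement subunits C1qb (-0.69 (SE 0.15, adjusted p 0.0601)) and C1qa (-0.62 (SE 0.15, adjusted p 0.0795)), which macrophages secrete, and the lysosomal protein Cd68 (-0.58 (SE 0.13, adjusted p 0.0697)) did not pass, and neither did Lyz2, the brightest gene of the list, at -0.25 (SE 0.37, adjusted p 0.821). Without C10 rat 2, C1qb (-0.82, adjusted p 0.0154), C1qa (-0.71, adjusted p 0.0348) and Cd68 (-0.68, adjusted p 0.0259) passed. Aif1, a calcium-binding protein of macrophages, and Tyrobp, an adaptor of receptors on myeloid and killer cells, stood outside the lists and were chosen after their values were seen, and they fell by 0.85 (adjusted p 0.0312) and 0.73 (adjusted p 0.0395), each passing in 3 of the 8 fits with 1 rat left out.

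**Figure D3:**
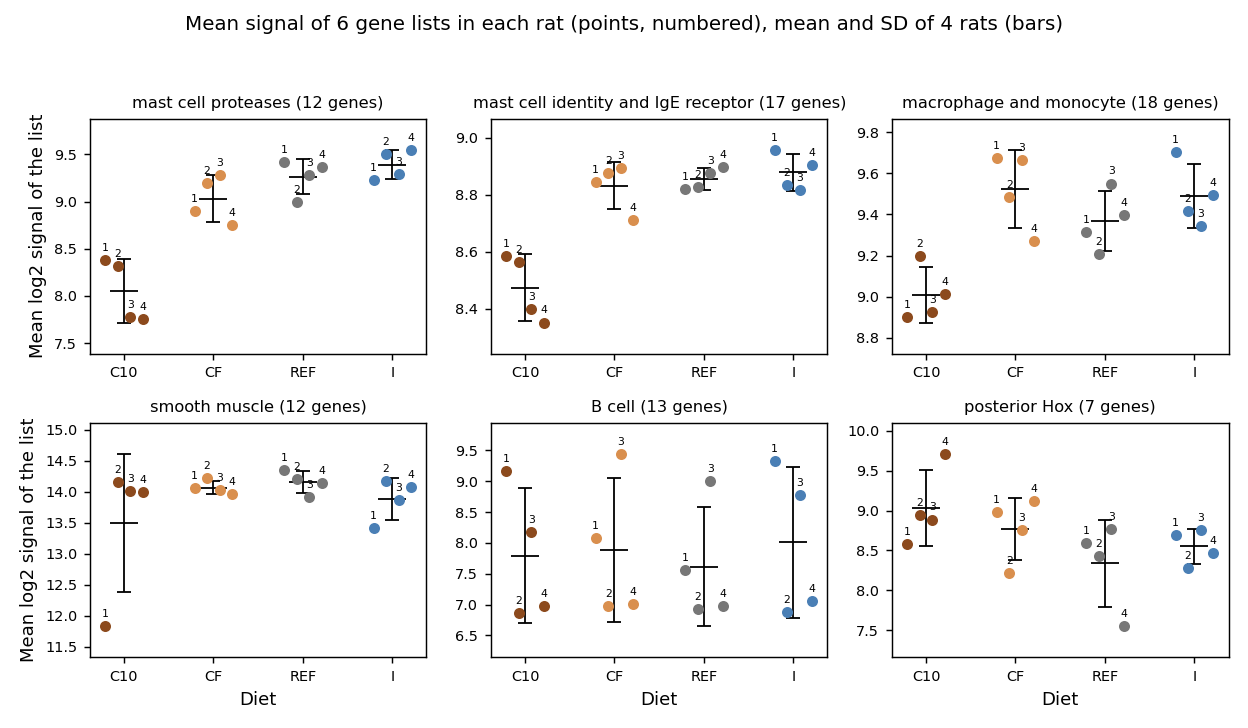
Mean normalized log2 signal of gene lists in each rat, by diet, with 1 numbered point per rat and bars for the mean and SD of 4 rats. The mast cell protease list is lowest in the 4 C10 rats (7.75 to 8.38, against 8.75 to 9.28 in CF), and the smooth muscle list is low in C10 rat 1 alone (11.83).

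Further called genes stood outside the mast cell and macrophage lists. Retnlg, a secreted resistin-like protein, read 8.83, 10.57, 9.19 and 9.53 in C10 and 11.26, 11.09, 11.42 and 10.92 in CF rats, where the CF rats were close together and C10 rat 2 came nearest to them. It changed by -1.64 (SE 0.26, adjusted p 0.0204). Igfbp3, which binds insulin-like growth factors, read 13.27, 13.63, 12.38 and 12.996 and 14.35, 14.43, 13.94 and 13.82, with C10 rat 3 lowest, and changed by -1.25 (SE 0.22, adjusted p 0.029). Itm2a, a membrane protein of differentiating cells, read 7.77, 8.83, 8.14 and 8.10 and 9.21, 9.52, 8.99 and 9.09, with C10 rat 1 lowest, and changed by -1.04 (SE 0.14, adjusted p 0.0131). Slfn4, a myeloid member of the schlafen family, read 7.002, 6.53, 6.42 and 6.09 and 7.33, 7.71, 7.73 and 7.97 and changed by -1.14 (SE 0.19, adjusted p 0.024), but was well above background in 3 of 4 C10 rats, and a dimmer probe differed by -0.70 between the means. The calls ended without CF rat 1, with an adjusted p of 0.133 for Retnlg, 0.158 for Igfbp3, 0.108 for Itm2a and 0.0865 for Slfn4, and likewise without C10 rat 3 or CF rat 2. Those of Retnlg, Igfbp3 and Slfn4 also ended without CF rat 3, those of Igfbp3 and Slfn4 without C10 rat 4, and that of Itm2a, which still passed, without C10 rat 1 (-0.98). Without an offset and with the processed signals, the change of Slfn4 was -2.08 and -2.72.

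Genes of several functions passed with smaller falls. Efemp2, a fibulin of elastic fibers, read 10.58, 11.21, 11.05 and 10.92 in C10 and 11.46, 11.74, 11.63 and 11.43 in CF rats. C10 rat 1 was lowest and C10 rat 2 came close to CF rats 1 and 4 without overlapping them. It changed by -0.63 (SE 0.07, adjusted p 0.00191), with an adjusted p of at most 0.0333 without C10 rat 3 among the fits with 1 rat left out. Tgm2, a transglutaminase that cross-links proteins, read 11.89, 12.27, 11.82 and 11.58 and 12.42, 12.74, 12.74 and 12.43, a change of -0.76 (SE 0.11, adjusted p 0.0168). Dbn1, the actin-binding protein drebrin, read 8.54, 8.61, 8.68 and 8.58 and 9.09, 8.84, 8.93 and 9.09, a change of -0.38 (SE 0.06, adjusted p 0.0171). G0s2, an inhibitor of fat breakdown, read 10.56 to 10.94 in C10 and 11.36 to 11.81 in CF rats, a change of -0.78 (SE 0.11, adjusted p 0.0167). The diets did not overlap in any of these 4 genes, and without CF rat 1 the adjusted p was 0.114 for Tgm2, 0.124 for Dbn1 and 0.114 for G0s2. These 3 did not pass without C10 rat 3 or CF rat 2 either, nor Tgm2 and Dbn1 without CF rat 3. Igf1, a growth factor that Igfbp3 binds, was chosen after its values were seen, read 12.06, 12.17, 11.42 and 11.99 in C10 and 12.89, 12.98, 12.59 and 12.33 in CF rats and fell by 0.86 (SE 0.16, adjusted p 0.0343), passing in 3 of the 8 fits with 1 rat left out.

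Fewer genes rose, and by less. Ccl28, a chemokine of the colon epithelium that attracts the plasma cells that make IgA, read 10.99, 10.69, 10.91 and 10.65 in C10 and 10.25, 10.004, 10.13 and 10.48 in CF rats. Every C10 rat was above every CF rat, and the REF rats (10.66 to 10.83) lay with the C10 rats, so that C10 minus REF was 0.09 and CF minus REF was -0.54. The I rats (10.149 to 10.555) lay below all C10 rats, with a mean of 10.31 beside 10.22 in CF. The change between C10 and CF was 0.63 (SE 0.10, adjusted p 0.0236). Upp1, uridine phosphorylase, read 10.55, 10.68, 10.60 and 10.64 and 10.16, 9.76, 10.13 and 10.07 and changed by 0.62 (SE 0.11, adjusted p 0.0299). Apln, the peptide ligand apelin, read 8.71, 8.30, 8.20 and 8.20 and 7.84, 7.81, 7.47 and 7.83, with CF rat 3 lowest, and changed by 0.54 (SE 0.10, adjusted p 0.0299). Without CF rat 1 the adjusted p was 0.135 for Ccl28, 0.124 for Upp1 and 0.135 for Apln. None of the 3 passed without C10 rat 3 or CF rat 2 or 3, nor Upp1 without C10 rat 4, nor Apln without CF rat 4. With rank product none of the 3 passed either.

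The remaining rises named by rule were Lypd3, Cant1 and H3f4. Lypd3, a membrane-anchored protein of epithelial surfaces, read 11.60, 11.55, 11.44 and 11.26 in C10 and 11.03, 10.94, 10.92 and 11.14 in CF rats and changed by 0.44 (SE 0.08, adjusted p 0.0272). Cant1, a nucleotidase of the secretory pathway, read 13.02, 13.18, 13.17 and 12.93 and 12.69, 12.67, 12.59 and 12.82 and changed by 0.38 (SE 0.06, adjusted p 0.0204), and its other probe differed by 0.40 between the means. H3f4, a histone, read 14.16, 14.37, 14.36 and 14.26 and 13.96, 14.08, 13.97 and 14.05 and changed by 0.28 (SE 0.05, adjusted p 0.0269). The diets did not overlap in these genes, and the adjusted p without CF rat 1 was 0.135 for Lypd3, 0.124 for Cant1 and 0.156 for H3f4. None of the 3 passed without C10 rat 3 or CF rat 2 or 3, nor H3f4 without C10 rat 4. These 3 did not pass with rank product either. Slc35a3, a carrier of nucleotide sugars chosen after its values were seen, had the largest rise among the genes that passed, 0.92 (SE 0.18, adjusted p 0.0486), with 12.49, 11.97, 12.57 and 12.26 in C10 and 12.08, 11.38, 10.83 and 11.23 in CF rats. Here C10 rat 2 lay below CF rat 1, and Slc35a3 passed in only 1 of the 8 fits with 1 rat left out.

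The cells that Ccl28 attracts gave no gene that passed with all rats in the model. Of 14 tested genes of plasma cells and IgA transport, Ccl28 alone passed, 10 were lower, and the median was -0.19, which was 0.002 without C10 rat 4 and -0.36 without C10 rat 3. Ccr10, the receptor for Ccl28, read 7.25, 7.06, 6.72 and 6.34 in C10 and 7.51, 8.20, 7.60 and 7.54 in CF rats, a difference of -0.91 (SE 0.24, adjusted p 0.118). Tnfrsf17, a survival receptor of plasma cells, read 7.71, 7.08, 6.70 and 6.21 and 8.25, 8.66, 7.90 and 8.01, a difference of -1.30 (SE 0.37, adjusted p 0.147). Derl3, of the secretory machinery of plasma cells, read 8.16, 7.81, 7.80 and 7.45 and 8.71, 8.85, 8.80 and 8.97, a difference of -0.94 (SE 0.21, adjusted p 0.0704). These 3 genes did not overlap between the diets, but missed the threshold. Derl3 was called without C10 rat 1 (-1.03, adjusted p 0.0498) and with the smooth muscle list signal as a covariate (-1.08, adjusted p 0.0365). Pigr, the epithelial transporter of IgA, was at 13.02 ± 0.09 in C10 and 12.76 ± 0.26 in CF rats. Among T cell genes, 0 of 13 passed and the median was 0.02, which was -0.20 without C10 rat 1, 0.28 without C10 rat 4, 0.16 without CF rat 3 and -0.39 with the smooth muscle list signal as a covariate. Cd3d varied from 8.31 to 11.57 in C10 and from 8.57 to 11.67 in CF rats.

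Defence proteins of the mucosa varied widely between rats of the same diet. Of 20 tested, Retnlg alone passed, 15 were lower, and the median was -0.19, which was -0.37 without C10 rat 1 and -0.33 without CF rat 4. Sftpd, a lectin that binds microbes, read 14.80, 16.04, 14.06 and 15.57 in C10 and 12.55, 9.07, 12.26 and 15.60 in CF rats. Its large difference of 2.83 (SE 1.36, adjusted p 0.389) came with CF rats that spanned most of the range. Retnlb, a resistin-like protein of goblet cells, read 12.92, 12.80, 9.86 and 12.67 and 15.55, 10.87, 15.99 and 14.57, a difference of -2.44 (SE 1.11, adjusted p 0.358). Slpi, an inhibitor of serine proteases of leukocytes, read 11.40, 9.96, 10.35 and 9.39 and 11.58, 11.55, 12.99 and 11.11, a difference of -1.48 (SE 0.36, adjusted p 0.0952). Slpi was called without C10 rat 1 (-1.80, adjusted p 0.0168), with the smooth muscle list signal as a covariate (-1.94, adjusted p 0.00296) and with Hoxb13 and B cell list signals as covariates (-1.40, adjusted p 0.00108), and with the latter Retnlb was called as well (-3.13, adjusted p 0.0229).

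Enzymes that handle polyphenols and other foreign compounds moved little as a group. Of 27 tested, 2 passed, both lower in C10, 13 were higher and 14 lower, and the median was -0.01. This median was 0.08 without C10 rat 3 and -0.06 without C10 rat 4, and changed sign in 7 of 25 alternatives. Aox1, an aldehyde oxidase, read 7.19, 7.40, 7.18 and 7.56 in C10 and 8.10, 7.92, 7.67 and 7.82 in CF rats, without overlap, and changed by -0.58 (SE 0.11, adjusted p 0.0338). Gsta3, a glutathione transferase, read 7.50, 7.87, 7.31 and 7.18 and 8.12, 8.65, 8.50 and 7.82, with C10 rat 2 above CF rat 4, and changed by -0.85 (SE 0.15, adjusted p 0.0299), whereas its dimmer probe, well above background in 1 of 4 C10 rats, differed by -0.30 between the means. Without CF rat 1 the adjusted p was 0.188 for Aox1 and 0.158 for Gsta3. Neither passed without C10 rat 3 or CF rat 2 or 3, nor Gsta3 without C10 rat 4. Without an offset Gsta3 was called (-1.10), and Aox1 changed by -0.80 and -0.91 without an offset and with the processed signals. Neither gene passed with the processed signals, nor Gsta3 with the mean of all its probes, nor Aox1 with quantile normalization of all dyes. Ahrr, the repressor of the aryl hydrocarbon receptor, differed by -0.86 (SE 0.20, adjusted p 0.0779) and did not pass except with a term for arrays 1 to 4 against 5 to 8 (-1.01, adjusted p 0.0428), and Nqo1, a quinone reductase, by -0.42 (SE 0.24, adjusted p 0.474). Of 14 tested genes of adenosine receptors and phosphodiesterases, targets of the methylxanthines in cocoa, 0 passed, with a median of -0.04. Adora3 and Pde4c were on this list but were not tested under these symbols, so the count does not cover them.

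Most genes of fat cells and of fatty acid synthesis were lower in C10, and none passed with all rats in the model. Of 16 adipocyte genes 13 were lower, with a median of -0.40 that was -0.21 without C10 rat 1 and -0.22 without CF rat 1. Adipoq, the fat cell hormone adiponectin, read 6.73, 7.09, 7.57 and 9.07 in C10 and 10.57, 9.21, 9.51 and 8.001 in CF rats, a difference of -1.53 (SE 0.63, adjusted p 0.312). Pck1, the brightest gene of the list, was higher by 0.88 (SE 0.22, adjusted p 0.11), and was called with C10 rats 1 and 4 left out (1.38, adjusted p 0.0401). It also passed without normalization between arrays (0.88, adjusted p 0.0497). Of 16 genes of fatty acid synthesis 13 were lower, with a median of -0.20 that was -0.09 without CF rat 1. Me1, the malic enzyme that supplies NADPH, came closest to the threshold at -0.83 (SE 0.17, adjusted p 0.0549), and Fasn, the fatty acid synthase, differed by -0.37 (SE 0.22, adjusted p 0.492). Sterol synthesis (25 genes, 12 higher and 13 lower) and lipid absorption (13 genes) had medians of -0.04 and -0.06, the latter 0.21 without C10 rat 4 and 0.13 without CF rat 2. The sterol synthesis median was -0.11 without C10 rat 4 and 0.02 without CF rat 1, and changed sign in 5 of 25 alternatives. Mogat2, an enzyme of fat absorption, passed without C10 rat 1 (-0.51, adjusted p 0.025). Me1 passed without CF rat 4 (-0.95, adjusted p 0.029) and with Hoxb13 and B cell list signals as covariates (-0.75, adjusted p 0.0482). With the smooth muscle list signal as a covariate, the medians were -0.17 for adipocyte genes and -0.16 for fatty acid synthesis. How far fat attached to a piece took part was not tested.

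The lists of epithelial functions had medians near 0, whose signs partly hung on single rats. Of 21 genes of ion transport, 12 of the use of short-chain fatty acids, 15 of tight junctions, 13 of proliferation and stem cells and 10 of goblet cells, 0 passed, and their medians were 0.07, 0.09, 0.04, 0.04 and -0.10. The median of ion transport was -0.03 without C10 rat 2, 0.16 without C10 rat 4, 0.14 without CF rat 2 and 0.01 without CF rat 3, that of short-chain fatty acid use 0.003 without C10 rat 1 and 0.18 without C10 rat 4, that of proliferation and stem cells 0.13 without C10 rat 2 and 0.11 without CF rat 3, and that of goblet cells -0.01 without CF rat 2 and -0.16 without C10 rat 1. That of tight junctions changed sign in 11 of 25 alternatives. Sgk1, a kinase that raises sodium uptake, differed by 0.72 (SE 0.27, adjusted p 0.257) and was called without C10 rat 1 (1.02, adjusted p 0.0277) and with the smooth muscle list signal as a covariate (1.06, adjusted p 0.0338). Slc16a1, which carries butyrate into the cell, differed by 0.31 (SE 0.14, adjusted p 0.334) and Slc5a8, another carrier of butyrate, by 0.31 (SE 0.11, adjusted p 0.232). Ocln, the junction protein occludin, read 11.37, 11.46, 11.04 and 11.67 in C10 and 11.004, 10.62, 10.59 and 11.16 in CF rats, a difference of 0.51 (SE 0.12, adjusted p 0.0843) that passed with Hoxb13 and B cell list signals as covariates (0.45, adjusted p 0.0229). Cdk1, a kinase of dividing cells, was at 12.22 ± 0.30 in C10 and 12.04 ± 0.14 in CF rats.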

How the data were processed

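Each of 8 arrays measured RNA of 2 rats. The authors deposited Agilent Feature Extraction 10.7.3.1 output, holding for each spot and dye the median intensity and local background (not normalized), processed intensities (used in 1 alternative), and flags for background, saturation and outliers, which are other values of 0 or 1. A normalized series table was left out, since no label links its columns to arrays. With limma 3.58.1 in R 4.3.3 (statmod 1.5.0, data.table version 1.17.8), intensities were background-corrected (normexp, offset 50), normalized by spatial loess (span 0.4), intensity loess (span 0.3) and Aquantile, and split into dyes. Outlier spots (604 to 896 per array) were left out, and spots averaged over 30367 probes. The 22539 probes well above background in at least 4 of 16 dyes gave 19901 genes, taking the brightest probe of a gene. The methods section gives no offset and no spans.

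The model held diet and dye, with the array as a random block (correlation 0.419, 11 residual degrees of freedom), and p-values were adjusted by Benjamini-Hochberg over all genes. The steps were tested on simulated data. Members and gene lists were chosen with earlier results of these data known. Named were all called genes with a symbol, the 6 further genes with the smallest adjusted p in each direction, at most 2 called transcripts without a symbol in each direction, and list members past the threshold or otherwise the brightest; list members named beyond these were chosen after their values were seen. Of 563 list entries in 33 lists, 466 were tested. The rest had no probe matched to the symbol or did not pass the filter. Rats carry arbitrary numbers that pair no rats. The labels put C10 and CF rats together on 2 arrays only, whose log-ratios are given as values, and 1 alternative held the array as a fixed term. Alternatives changed background correction, normalization, model terms, arrays, rats, probe filter, probe choice and test (rank product with 100 permutations, the test that the methods name).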

Additional observations from a re-analysis of the deposited data

Results flagged for a closer look

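Within each group of 4 rats, the lowest and the highest value of each named gene and of each list mean were compared with the other 3 rats, and a value was marked when its gap to the next rat took up most of the group's range. Chance alone marks about 1 in 20 of the groups, and 7 of 134 were marked. C10 rat 1 was marked for the smooth muscle list (mean 11.83, other C10 rats 13.99 to 14.15) and for the gut neuropeptide list (7.82, others 8.88 to 9.07). In C10 rat 2 the mean of the ion transport list was 12.07, above the others at 11.63 to 11.70. In C10 rat 4 the mean of the sterol synthesis list was 11.04, above the others at 10.57 to 10.63. CF rat 2 had a stomach list mean of 8.18, above the others at 7.31 to 7.39. CF rat 3 had the lowest Apln signal, 7.47, below the others at 7.81 to 7.84. CF rat 4 had the lowest Ccl12 signal, 6.72, below the others at 7.53 to 7.68. The causes were not tested.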

How the results depend on the processing

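With 20 genes called and 85 past the threshold in the model as reported, the counts moved with the model more than with the normalization. Called genes numbered 35 without an offset, 38 with the processed signals, 10 without a dye term, 0 with the array as a fixed term, 0 without an array term, 0 in the 8 dyes of C10 and CF alone and 66 with rank product. Genes past the threshold numbered 23 without a dye term, 0 with the array as a fixed term, 3 without an array term, 0 in the 8 dyes alone, 44 with a term for arrays 1 to 4 against 5 to 8, and 196 with Hoxb13 and B cell list signals as covariates. Of the alternatives chosen after seeing the data, arrays 1 to 4 alone gave 0 and 0, the smooth muscle list signal as a covariate 44 and 144, and leaving out C10 rats 1 and 4 together 12 and 21. With 1 rat left out the counts ranged from 0 to 39 and from 3 to 225. Some of these fits held fewer arrays or rats, or more terms, than the model as reported. Power was not computed, and why the counts moved was not tested. The other alternatives kept both counts within 1.5 times.

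No named gene and no called direction reversed. Of 881 values with a test for the 34 named genes, 525 kept their side of the threshold and 356 no longer passed. With rank product, 14 of the 34 no longer passed, namely all rises named by rule, Fcer1a, Ms4a2, Fcgr3a, Efemp2, Tgm2, Dbn1, Gsta3 and Aox1. A term for arrays 1 to 4 against 5 to 8 ended the pass of 12 of the 34. These were Mcpt8, Mcpt9, Vch, Fcer1g, Fcer1a, Cma1, Fcgr3a, Gsta3, Aox1, Lypd3, Apln and H3f4. On arrays 3 and 4 alone, which gave values without a test, 32 of the 34 genes moved by less than the spread between rats and 2 by more (Cpa3 -1.94, Igfbp3 -1.70). Of 850 list medians, 838 moved by less than that spread and 12 by more. The number of arrays limits the precision, and signals near the background floor limit the size of a fall.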

Other observations

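Some immune and tissue lists not described above were lower in C10 without a gene that passed with all rats in the model. Of 18 interferon response genes 17 were lower, with a median of -0.25, which was -0.39 without C10 rat 1, -0.06 without C10 rat 4 and -0.09 without CF rat 2. Gbp2, a GTPase induced by interferon, read 10.37, 10.45, 10.12 and 10.11 in C10 and 10.83, 10.82, 11.10 and 10.81 in CF rats, a difference of -0.59 (SE 0.13, adjusted p 0.06) without overlap. All 9 genes of MHC class II, the molecules that present peptides to helper T cells, were lower, with a median of -0.29, which was -0.53 without C10 rat 1, 0.02 without C10 rat 4 and -0.76 with the smooth muscle list signal as a covariate. Cd74, the invariant chain, was at 13.60 ± 0.79 in C10 and 14.17 ± 0.70 in CF rats. The 8 genes of neutrophils and eosinophils were not lower as a list, with 4 higher, 4 lower and a median of -0.01. That median changed sign in 9 of 25 alternatives. Among them Ccl11, the chemokine eotaxin, read 11.49, 11.72, 11.18 and 11.01 and 11.94, 12.34, 11.94 and 12.10, a difference of -0.77 (SE 0.18, adjusted p 0.073) without overlap. Of 12 prostanoid and leukotriene genes 11 were lower, with a median of -0.13, which was -0.08 without C10 rat 4, and Ptgs1, a cyclooxygenase, differed by -0.51 (SE 0.13, adjusted p 0.109). Without C10 rat 2 both Gbp2 (-0.66, adjusted p 0.0292) and Ccl11 (-0.89, adjusted p 0.0301) passed, and with Hoxb13 and B cell list signals as covariates Gbp2 (-0.59, adjusted p 0.0367) and Ptgs1 (-0.46, adjusted p 0.0229) did. The 11 tested genes of the Toll-like receptor list had a median of -0.00. Tlr11 (-0.39) and Ifitm2 (-0.32) stood outside the lists, were chosen after their values were seen, and passed. With 1 rat left out, they passed in 1 and 3 of the 8 fits.

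The gut neuropeptide list had a median of -0.42, which was -0.23 without C10 rat 1, -0.20 without C10 rat 4 and -0.19 without CF rat 2. Tac3, a tachykinin, read 10.699, 11.55, 11.03 and 11.33 in C10 and 11.88, 12.002, 11.50 and 11.54 in CF rats, a difference of -0.61 (SE 0.14, adjusted p 0.0704). It passed without C10 rat 2 (-0.70, adjusted p 0.0321) and with Hoxb13 and B cell list signals as covariates (-0.61, adjusted p 0.0295). Pdyn, the precursor of dynorphin, was higher at 0.99 (SE 0.31, adjusted p 0.188), and was called without C10 rat 1 (1.32, adjusted p 0.0244) and with the smooth muscle list signal as a covariate (1.35, adjusted p 0.0317). The 24 striated muscle genes, the 11 enteroendocrine genes, the 14 immediate-early genes and the 8 erythrocyte genes had medians of -0.18, -0.23, -0.04 and -0.000689, and 0 of them passed with all rats in the model. Casq2, a calcium-binding protein of striated muscle, was called without C10 rat 4 (-1.20, adjusted p 0.0373). The erythrocyte median was -0.24 without C10 rat 4 and 0.24 without CF rat 1. The enteroendocrine median was -0.06 without C10 rat 4 and 0.13 without CF rat 2, in which Chga, a protein of their granules, was 10.75 against 8.63 to 9.25 in the C10 rats.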
